A study of Mus musculus with 40 samples.

Results

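The genes described here mark microglia, the resident macrophages of the brain, and were followed through 4 RNA fractions of mouse forebrain. They are Cx3cr1, P2ry12, Csf1r, Tmem119, Trem2, C1qa, C1qb, C1qc and Aif1. They were chosen by symbol, each symbol matched 1 Ensembl gene, and the set holds 9 of the 41388 genes in the count files. All 9 passed the filter on low counts in every comparison. RBP4-TRAP mice carry Tg(RBP4-cre)KL100Gsat/Mmcd, whose driver targets layer 5 pyramidal neurons, and a Cre-dependent EGFP/Rpl10a reporter that tags ribosomes with GFP. VGAT-TRAP mice carry the same reporter with Slc32a1tm2(cre)Lowl/J, in which Cre is made from the Slc32a1 locus, which targets GABAergic neurons. All mice were 21 d old, and each replicate was a pool of forebrains of both sexes, 5 pools per line. Each pool gave a whole-cell homogenate (WCH), ribosomes captured from it by their tag (TRAP), a synaptoneurosome fraction (SNF) from a density gradient, and ribosomes captured from SNF (SynapTRAP, ST), which makes 8 groups of 5 and 40 libraries. The labels name the tissue as cortex. Both drivers are neuronal. No capture from untagged mice was analysed here, and the source of the microglial RNA in a capture was not tested.

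Microglia survey the brain with motile processes, engulf debris and take part in the removal of synapses. CX3CR1 receives fractalkine, a chemokine that neurons make, P2RY12 senses purine nucleotides and steers processes toward injury, and CSF1R binds CSF1 and IL-34 and is needed for microglial survival. TREM2 binds lipids and signals through the adaptor TYROBP. C1QA, C1QB and C1QC are the chains of C1q, the recognition molecule of the classical complement pathway. TMEM119 is a membrane protein used to tell microglia from other macrophages, and AIF1 (IBA1) is a calcium-binding protein of myeloid cells. The myeloid transcription factor PU.1, made from Spi1, binds a purine-rich sequence at many genes of these cells.

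The promoters of the genes were searched for the PU.1 core GAGGAA and for the longer GAGGAAGT, which contains it, on both strands. RefSeq promoters (GRCm38.p6) were used for 6 of the 9 genes, not for Csf1r, C1qa and Tmem119. In the 250 bases before the start, the core was in 4 of 6, against 23.3% of 32851 promoters, and the longer sequence in 1 of 6 (C1qc), against 2.44%. The core lay 34 bases before the start of Trem2, 24 before that of C1qb, 187 before that of C1qc and 1 before that of Aif1. It was in neither the Cx3cr1 nor the P2ry12 promoter. A match is a run of letters, and binding was not measured. Whether a match bears on the levels in the fractions was not tested. The 60 bases around the match are shown for 3 of these genes, 5′ to 3′ on the strand of the gene, with the core or its reverse complement in capitals.
Trem2, chr17:48346334-48346393, plus strand: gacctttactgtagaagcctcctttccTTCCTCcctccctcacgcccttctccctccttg
C1qb, chr4:136886201-136886260, minus strand: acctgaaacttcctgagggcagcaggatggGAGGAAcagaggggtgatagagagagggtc
C1qc, chr4:136893075-136893134, minus strand: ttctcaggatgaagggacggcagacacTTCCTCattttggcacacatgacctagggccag
The C1q genes are neighbors on chromosome 4 of GRCm38, with C1qb at 136880129 to 136886187, C1qc at 136889804 to 136893065 and C1qa at 136895917 to 136898803, all on the minus strand. These spans are those of the count files. The distances above are from the RefSeq starts, which for C1qb and C1qc differ from the ends of these spans.

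Libraries held 14259535 to 22037703 counts, and 8950847 to 21976631 once mitochondrial, rRNA and tRNA genes were left out. Levels are counts scaled to 1000000 of what remained (cpm), and a single count was worth 0.0455 to 0.112 cpm. Mitochondrial genes took 11.2% to 41.9% of the counts in SNF and at most 0.511% in TRAP. Slc32a1, the vesicular GABA transporter, reached 49.9 cpm in replicate 4 of RBP4 ST, where the remaining replicates had 10.9 to 19.7 cpm. The library labelled RBP4 ST replicate 4 thus stands apart in Slc32a1. Comparisons that involve RBP4 ST were fitted with and without it, and part of their values without it are given. Some within-pool ratios are also given without its pool. The other fits that hold it use it only for the filter and the shared spread. They were not rerun without this library alone. Other RBP4 ST libraries stood apart in other measures. Replicate 2 had 769 cpm over 10 endothelial genes, with 44.0 to 182 cpm in the rest. Replicate 3 had 15.8% mitochondrial counts, with 2.71% to 7.08% in the rest. Replicate 5 had 83.8 cpm over the 9 genes, with 202 to 378 cpm in the rest. In bulk RNA, fewer microglia and less RNA per microglial cell cannot be told apart.

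In the homogenate, P2ry12 and C1qb were the most abundant of the genes per kb of exon. In RBP4 WCH they had 23.5 ± 11.3 and 23.2 ± 4.47 cpm per kb (SD, n = 5), and in VGAT WCH 33.5 ± 5.52 and 27.1 ± 2.76. Cx3cr1 came next, at 13.3 ± 3.95 and 18.0 ± 3.90 cpm per kb. Aif1, C1qc, Csf1r and C1qa had means from 3.77 to 9.70 cpm per kb, and Tmem119 and Trem2 were last, with Trem2 at 0.992 ± 0.142 and 1.03 ± 0.148. The means of P2ry12 and C1qb in RBP4, and of Tmem119 and Trem2 in RBP4, lay within 1 SD of each other. In TRAP, SNF and ST of both lines C1qb had the highest level per kb, and Tmem119 and Trem2 the lowest.

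P2ry12, the purine receptor, was 53.4, 97.3, 46.8, 59.4 and 23.2 cpm in WCH of RBP4 pools 1 to 5, 6.5, 3.52, 2.85, 3.05 and 5.49 in TRAP, 94.6, 175, 117, 92.2 and 24.5 in SNF, and 32.5, 89.5, 43.6, 27.3 and 12.6 in ST. In VGAT it was 61.8, 70.2, 84.3, 88.9 and 92.9 cpm in WCH, 16.8, 7.67, 27.8, 21.1 and 11.9 in TRAP, 139, 149, 170, 156 and 160 in SNF, and 36.4, 48.4, 51.6, 67.8 and 53.2 in ST. Every TRAP library was below every WCH library of its line. In VGAT only WCH and ST overlapped, whereas in RBP4 pool 5 was low in WCH, SNF and ST and widened those groups.

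Cx3cr1, the fractalkine receptor, was 41.2, 74.1, 53.3, 43.9 and 37.1 cpm in RBP4 WCH, 2.56, 1.44, 3.11, 2.82 and 9.64 in TRAP, 114, 200, 136, 110 and 55.5 in SNF, and 50.0, 77.0, 40.3, 108 and 11.7 in ST. In VGAT it was 53.4, 55.5, 67.2, 70.8 and 89.8 cpm in WCH, 7.52, 3.33, 15.9, 10.5 and 14 in TRAP, 141, 153, 203, 145 and 140 in SNF, and 115, 135, 74.1, 76.7 and 66.6 in ST. TRAP was the lowest fraction and SNF had the highest median in both lines. RBP4 ST replicate 4 had the highest Cx3cr1 of its group, but only the fourth highest P2ry12.

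C1qb was 31.4, 19.2, 25.4, 28.4 and 22.1 cpm in RBP4 WCH, 2.80, 1.78, 5.76, 2.32 and 9.58 in TRAP, 53.7, 93.6, 139, 70.6 and 47.3 in SNF, and 41.7, 52.5, 63.4, 61.8 and 24.6 in ST. In VGAT it was 31.9, 29.0, 28.2, 25.4 and 32.9 cpm in WCH, 14.3, 4.87, 22.3, 15.3 and 9.38 in TRAP, 91.8, 98.8, 150, 67.1 and 88.7 in SNF, and 108, 110, 103, 45.1 and 61.0 in ST. All VGAT ST libraries were above all VGAT WCH libraries. P2ry12, by contrast, was lower in ST than in WCH within each VGAT pool, though its ranges overlapped.

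C1qc was 15.1, 9.08, 13.7, 11.3 and 7.03 cpm in RBP4 WCH and 1.19, 0.842, 1.82, 1.18 and 2.75 in TRAP, with 16.3 to 65.8 in SNF and 9.27 to 36.0 in ST. In VGAT it was 13.6, 9.65, 10.1, 12.3 and 13.9 cpm in WCH and 4.46, 2.32, 9.82, 7.77 and 3.65 in TRAP, with 29.4 to 59.8 in SNF and 17.3 to 51.5 in ST. The TRAP libraries of the lines overlapped between 2.32 and 2.75 cpm, and VGAT TRAP of pool 3 reached the WCH range.

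The remaining genes were also lowest in TRAP. Csf1r ranged from 18.9 to 32.4 cpm in WCH of both lines and from 2.33 to 9.88 in TRAP, and Aif1 from 4.38 to 18.2 in WCH and from 0.990 to 8.29 in TRAP. C1qa (2.68 to 5.33 cpm in WCH), Tmem119 (1.42 to 4.84) and Trem2 (4.23 to 6.02) rested on few reads in TRAP, where the lowest libraries held 6, 6 and 5 counts. Exons of Csf1r, on chromosome 18, overlap those of Hmgxb3, and the libraries do not mark strand. The paper counted only reads that were unambiguous, so that reads in the overlap would be left out of the Csf1r counts.

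**Figure D1:**
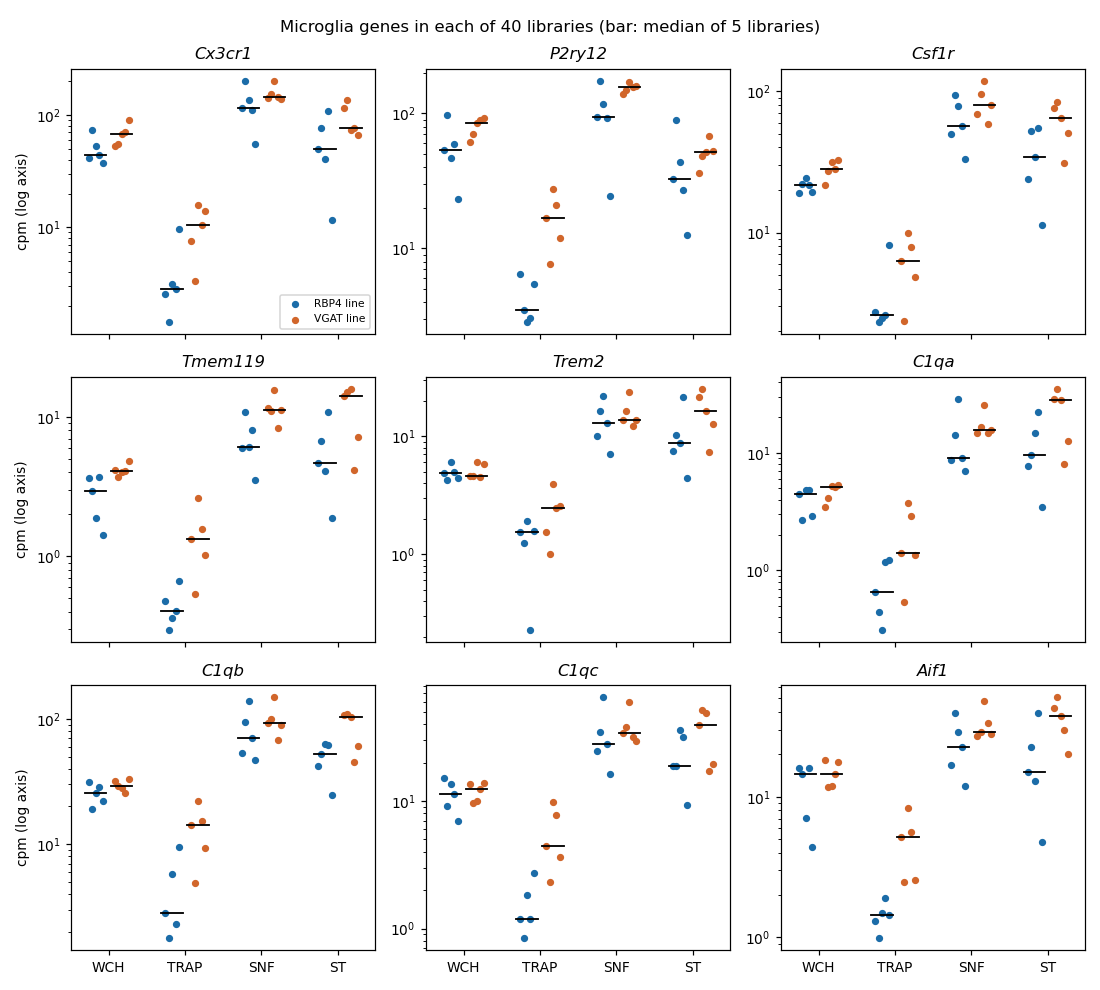
Level of each gene in cpm (log axis) in the 4 fractions of the RBP4 (blue) and VGAT (orange) lines; points are single libraries and black bars the median of 5. The TRAP median is the lowest of the 4 fractions for every gene in both lines, as for C1qb in RBP4, with 1.78 to 9.58 cpm in TRAP and 19.2 to 31.4 cpm in WCH.

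TRAP against WCH compares the captured ribosomes of a line with its homogenate. Here and below the main fits hold the group alone, without a term for the pool. All 9 genes fell in both lines (edgeR quasi-likelihood test, Benjamini-Hochberg adjusted p of at most 0.05), where 31.5% of all genes tested were called lower in RBP4 and 41.8% in VGAT. In RBP4 P2ry12 (log2 fold change -3.71 ± 0.50 SE, edgeR adjusted p = 8.75e-06) and Cx3cr1 (-3.68 ± 0.51) fell most and Trem2 (-1.92 ± 0.42, adjusted p = 0.00117) least. In VGAT Cx3cr1 (-2.71 ± 0.29, adjusted p = 1.26e-07), P2ry12 (-2.22 ± 0.24) and Csf1r (-2.18 ± 0.29) fell most, and C1qc (-1.09 ± 0.34, adjusted p = 0.00815), Trem2 (-1.14 ± 0.32) and C1qb (-1.16 ± 0.30) least. TRAP and WCH did not overlap for 9 of 9 genes in RBP4 (23.8% of all genes were lower without overlap) and for 7 of 9 in VGAT (34.7%), the exceptions being C1qa and C1qc. In VGAT the call of C1qa ended without pool 5 (adjusted p = 0.0570) and that of C1qc without pool 1 (adjusted p = 0.0515). Genes of other cell types that the drivers do not target fell as well, 9 of 10 astrocyte genes in RBP4 and 10 in VGAT (medians -2.36 and -2.65), 9 and 10 of 10 myelin genes (-2.59 and -2.51) and 6 and 8 of 10 endothelial genes (-2.34 and -3.00), and their part in the result was not tested.

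Within pools TRAP was lower in 45 of 45 pairs of gene and pool in each line. The 9 genes share libraries, so these pairs are not independent and the count is a description, without a share of all genes beside it. The median share of the WCH level left in TRAP ran from 6.10% (P2ry12) to 31.5% (Trem2) in RBP4, and from 14.9% (Cx3cr1) to 44.8% (C1qb) in VGAT. RBP4 pool 5 kept the most of all 9 genes, from 23.7% to 47.4%. In that TRAP library the sum of 10 myelin genes was 5771 cpm, with 434 to 1051 cpm in the other RBP4 TRAP libraries, and the sum of 10 astrocyte genes was 3271 cpm, with 514 to 982 cpm in the others. VGAT pool 3 kept the most in that line, from 23.7% of Cx3cr1 to 97.4% of C1qc. Its TRAP library also had the highest myelin sum, 2783 cpm, with 494 to 1951 cpm in the other VGAT TRAP libraries, and 155 cpm of Slc17a7, the vesicular glutamate transporter of excitatory neurons, with 24.6 to 48.8 cpm in the others. The next highest myelin sum, 1951 cpm, was that of pool 5, which kept from 12.8% of P2ry12 to 44.7% of Trem2. The part of these other cell types in the result was not tested.

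SNF against WCH compares the synaptoneurosome fraction with the homogenate. The level was higher in SNF in 45 of 45 pairs of gene and pool in each line, again a description of pairs that are not independent. In RBP4 8 of 9 genes rose (13.4% of all genes were called higher), from 1.04 ± 0.42 for Aif1 to 1.78 ± 0.44 for C1qa on the log2 scale. The exception was P2ry12, at 0.85 ± 0.44 (edgeR adjusted p = 0.116), which was called with TMM factors (1.25, adjusted p = 0.0413), with DESeq2 (1.35, adjusted p = 0.0322) and without pool 5 (0.90, adjusted p = 0.0296). In VGAT 9 of 9 rose (19.3% of all genes), from 0.96 ± 0.23 for P2ry12 to 1.90 ± 0.37 for C1qa. The C1q chains had the largest values in both lines, 1.59 to 1.78 in RBP4 and 1.70 to 1.90 in VGAT, and P2ry12, Aif1 and Cx3cr1 the smallest. Astrocyte genes rose too, 8 of 10 in RBP4 and 9 in VGAT (medians 1.38 and 1.45), as did 8 and 9 of 10 myelin genes (1.06 and 1.16) and 0 and 5 of 10 endothelial genes (0.54 and 1.21), and their part in the result was not tested.

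SNF and WCH did not overlap for 5 of 9 genes in RBP4 (10.5% of all genes were higher without overlap) and for 9 of 9 in VGAT (15.2%). In RBP4 the call of Aif1 ended without pool 1, 2 or 3 and that of Cx3cr1 without pool 1, 3 or 4, and both ended when mitochondrial, rRNA and tRNA genes stayed in the library sizes (adjusted p = 0.110 and 0.0541). The median over all genes was itself below 0, at -0.50 in RBP4 and -0.52 in VGAT for SNF against WCH and at -0.34 and -0.31 for TRAP against WCH. Relative to it, the rises in SNF ran from 1.35 to 2.28 in RBP4 and from 1.48 to 2.42 in VGAT. The falls in TRAP became smaller relative to it. They ran from -3.38 (P2ry12) to -1.58 (Trem2) in RBP4 and from -2.40 (Cx3cr1) to -0.78 (C1qc) in VGAT. TMM factors moved the calls over all genes from 2286 higher and 6161 lower to 3284 and 3048 for SNF in RBP4, and from 3283 and 7680 to 4187 and 4747 in VGAT. For TRAP they moved from 1427 and 5372 to 3296 and 3815 in RBP4 and from 3561 and 7106 to 4987 and 5530 in VGAT. With TMM all 9 genes were called lower in TRAP and higher in SNF in both lines. For TRAP in VGAT, C1qc and C1qa passed narrowly with TMM (edgeR adjusted p = 0.0446 and 0.0450).

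**Figure D2:**
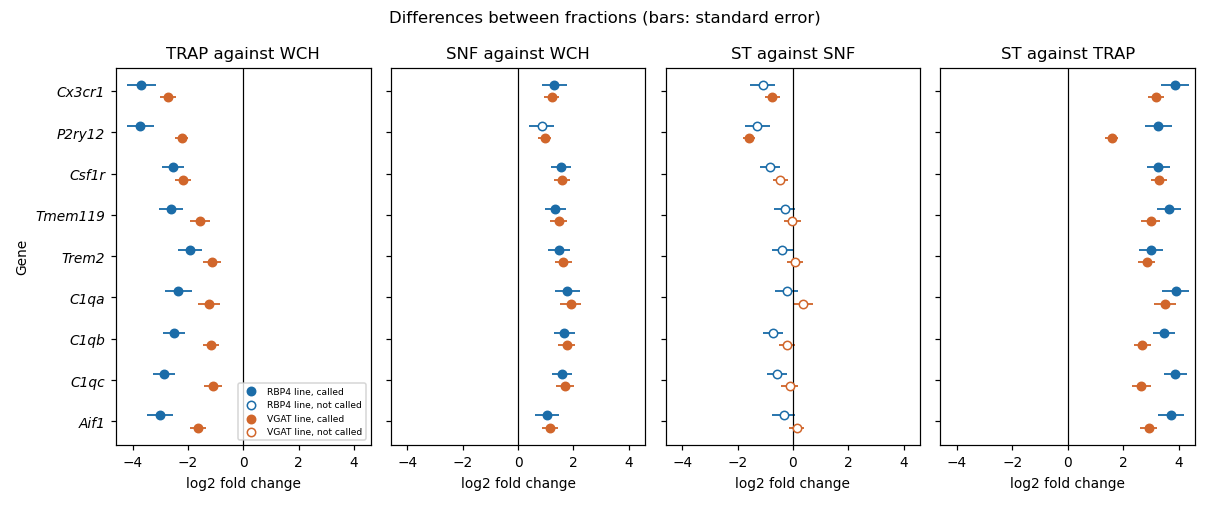
Log2 fold change of each gene between fractions, with its standard error as a bar, in the RBP4 (blue) and VGAT (orange) lines; filled points have an adjusted p of at most 0.05 and open points do not. All 9 genes are below 0 for TRAP against WCH and above 0 for SNF against WCH and ST against TRAP, and only P2ry12 and Cx3cr1 in VGAT are filled for ST against SNF.

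ST against SNF compares the captured ribosomes of the synaptoneurosome fraction with that fraction. P2ry12 (-1.59 ± 0.23, edgeR adjusted p = 1.67e-05) and Cx3cr1 (-0.74 ± 0.27, adjusted p = 0.0445) fell in VGAT, 2 of 9 genes where 11.2% of all genes were called lower. The other 7 genes in VGAT ran from -0.46 (Csf1r, 95% interval -0.99 to 0.072) to 0.38 (C1qa, -0.31 to 1.07). In RBP4 0 of 9 were called with edgeR, where 11.1% of all genes were called in either direction, with 3 at an unadjusted p under 0.05, and DESeq2 called 0, with 4 unadjusted. There P2ry12 was at -1.29 ± 0.45 (adjusted p = 0.0650), Cx3cr1 at -1.10 ± 0.45 and Csf1r at -0.82 ± 0.36, and the rest between -0.73 and -0.23. Beside them, 0 of 10 astrocyte genes were called in RBP4, while 1 rose and 2 fell in VGAT. Of 10 myelin genes 3 rose and 1 fell in RBP4 and 3 rose and 2 fell in VGAT, and of 10 endothelial genes 4 and 2 rose.

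Pools bear on these calls. With the pool as a block P2ry12 was called in RBP4 (-1.34, edgeR adjusted p = 0.0110), and Cx3cr1 lost its call in VGAT (-0.70, adjusted p = 0.0587). Cx3cr1 also lost it without VGAT pool 1, 3, 4 or 5 (adjusted p from 0.0629 to 0.153), while P2ry12 was called in VGAT under all 13 alternatives run. In RBP4, P2ry12 was called without pool 2 (-1.5), and P2ry12, Cx3cr1 and Csf1r were called without pool 5 (-1.31, -1.02 and -0.76). Without RBP4 ST replicate 4, P2ry12 was at -1.18 (adjusted p = 0.146) and Cx3cr1 at -1.46 (adjusted p = 0.0572). TMM factors moved the calls over all genes in VGAT from 2771 higher and 1905 lower to 1987 and 2480, and P2ry12 and Cx3cr1 were called lower with them too.

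P2ry12 was lower in ST than in SNF in 10 of 10 pools, at 29.6% to 51.3% of the SNF level in RBP4 and 26.1% to 43.4% in VGAT. Cx3cr1 was also lower in 10 of 10 pools, at 21.0% to 98.3% in RBP4 and 36.6% to 88.7% in VGAT. In all, 4 of the 9 genes were lower in every RBP4 pool and 2 in every VGAT pool. No share of all genes is given beside these counts. C1qa spread from 49.1% to 243% in RBP4 and from 54.2% to 213% in VGAT. RBP4 pool 4, whose ST library stands apart in Slc32a1, had the highest share for 8 of the 9 genes and the lowest for P2ry12. Without RBP4 pool 4 the RBP4 shares were 34.3% to 51.3% for P2ry12, 21.0% to 43.7% for Cx3cr1 and 49.1% to 88.6% for C1qa.

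**Figure D3:**
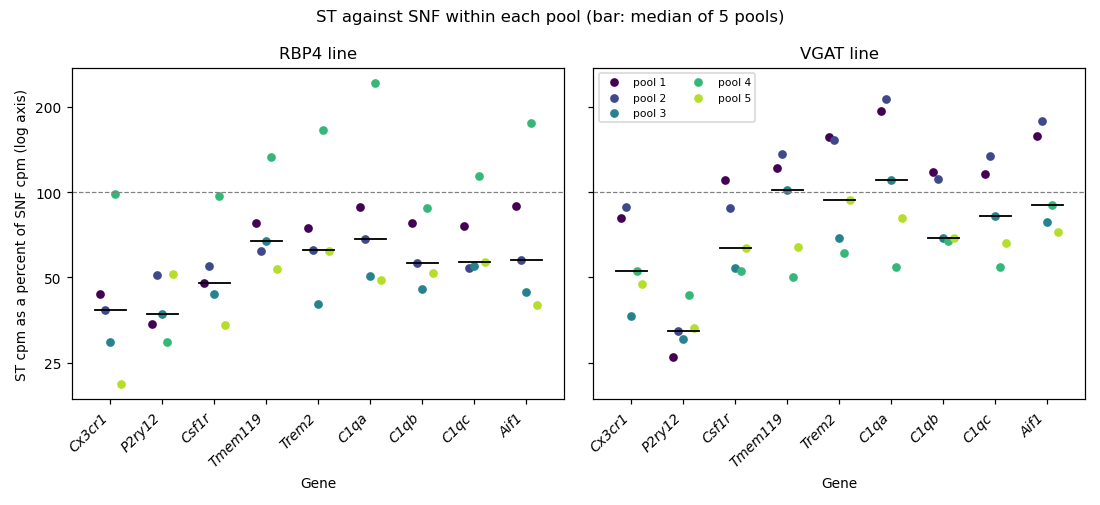
ST level as a percent of the SNF level of the same pool (log axis, dashed line at 100%) for each gene, with 5 pools per line, colored by pool number, and black bars at their median. P2ry12 is at 26.1% to 51.3% in all 10 pools, and Cx3cr1 is also below 100% in all 10. RBP4 pool 4 is the highest RBP4 point for the 8 genes other than P2ry12, up to 243% for C1qa.

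The genes had higher levels in ST than in TRAP. All 9 rose in both lines (26% of all genes were called higher in RBP4 and 37.5% in VGAT), by 3.01 ± 0.43 (Trem2) to 3.89 ± 0.49 (C1qa) in RBP4 and by 1.59 ± 0.23 (P2ry12) to 3.50 ± 0.40 (C1qa) in VGAT. Without RBP4 ST replicate 4 all 9 were called in RBP4, from 2.58 (Trem2) to 3.74 (C1qc). All 10 astrocyte, 10 myelin and 10 endothelial genes rose in both lines as well, with medians of 3.28, 3.15 and 5.07 in RBP4 and 3.76, 3.47 and 5.53 in VGAT, and their part in the result was not tested. ST and TRAP did not overlap for 9 of 9 genes in each line (13.6% and 24.3% of all genes were higher without overlap). Median ratios of ST to TRAP within pools ran from 4.83 (Trem2) to 19.8 (C1qc) in RBP4 and from 3.21 (P2ry12) to 10.6 (Csf1r) in VGAT, and without RBP4 pool 4 from 4.70 (Trem2) to 17.8 (C1qc) in RBP4. ST was not tested against WCH. Its pool medians were 60.9% (P2ry12) to 304% (C1qa) of the WCH level in RBP4 and 61.2% (P2ry12) to 540% (C1qa) in VGAT. Without RBP4 pool 4 they were 76.5% (P2ry12) to 239% (C1qa) in RBP4, and P2ry12 was below its WCH level in 10 of 10 pools.

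Between the lines, the homogenates did not differ detectably in these genes. In WCH 0 of 9 were called with edgeR (0.0113% of all genes in either direction) and 0 had an unadjusted p under 0.05, and DESeq2 called 0. The log2 fold changes of RBP4 over VGAT ran from -0.62 ± 0.37 (Tmem119, 95% interval -1.34 to 0.10) to -0.055 ± 0.37 (Trem2, -0.77 to 0.66). In TRAP, by contrast, 7 of 9 were lower in RBP4 (14.7% of all genes were called lower), from -1.36 ± 0.50 for C1qa (edgeR adjusted p = 0.0361) to -2.0 ± 0.41 for P2ry12 (adjusted p = 0.000191). Csf1r (-0.78 ± 0.37, adjusted p = 0.113) and Trem2 (-0.84 ± 0.40, adjusted p = 0.120) did not pass. C1qa lost its call without RBP4 pool 1, 2 or 3 or VGAT pool 3 or 4 (adjusted p from 0.0761 to 0.149), and Csf1r was called without RBP4 pool 5 (-1.30, adjusted p = 0.00153).

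Other lists are given beside this for TRAP. The median log2 fold change of RBP4 over VGAT was -1.57 over the 9 genes and -1.18 over 30 further microglia genes, of which 14 were lower and 0 higher. It was 0.38 over 10 astrocyte genes, of which 1, Aldh1l1, was higher, 0.23 over 10 myelin genes, of which 0 were called, and 0.68 over 10 endothelial genes, of which 1, Pecam1, was higher. Over 11 genes of border macrophages and blood myeloid cells it was -0.95, with 2 lower and 1 higher. Over 10 genes of TREM2 and CSF1R signaling it was -0.85, with 3 lower and 1 higher. It was 0.20 over 19 complement genes outside C1q (4 higher, 1 lower) and 0.46 over 7 ligands (2 higher, 0 lower). The median of all genes was -0.0032. The lists were not tested against each other.

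**Figure D4:**
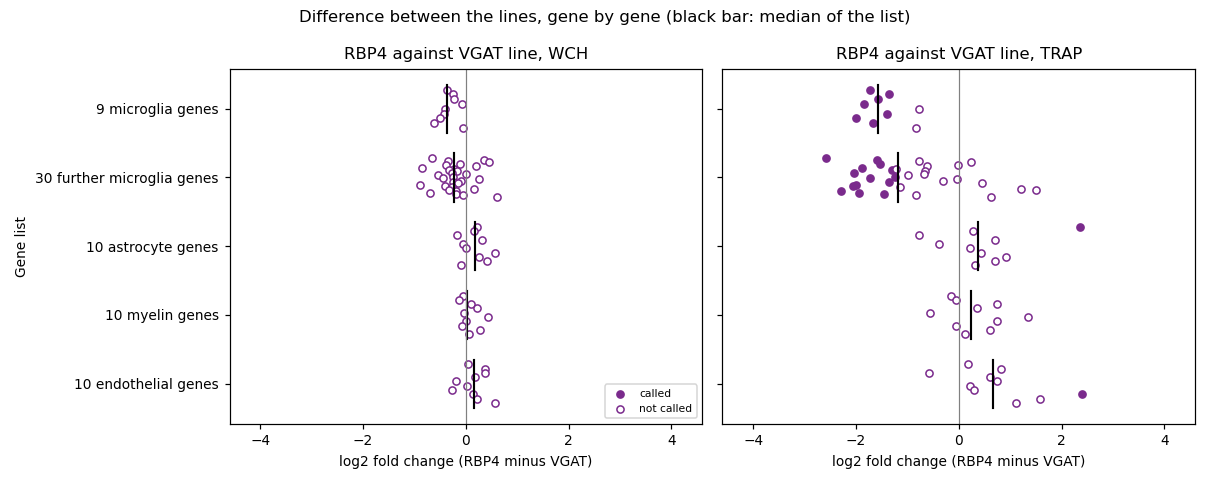
Log2 fold change of RBP4 over VGAT for each gene of 5 lists in WCH (left) and TRAP (right), with called genes filled and the median of each list as a black bar. No gene is filled in WCH, and in TRAP 7 of 9 and 14 of 30 microglia genes are filled below 0.

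In SNF 0 of 9 genes were called between the lines with edgeR (0.0169% of all genes in either direction), with 1, Tmem119, at an unadjusted p under 0.05, and DESeq2 called 0. In ST 0 of 9 were called (0.4% of all genes), with 5 unadjusted, and DESeq2 called 0, with 3 unadjusted. All 9 estimates in ST were below 0, from -0.32 ± 0.38 (P2ry12) to -1.0 ± 0.35 (Tmem119, edgeR adjusted p = 0.245). Without RBP4 ST replicate 4 Tmem119 (-1.38, adjusted p = 0.0447) and Aif1 (-1.40, adjusted p = 0.0460) were called. TMM factors moved the calls over all genes in ST from 12 higher and 59 lower to 22 and 27.

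Whether a fraction difference itself differed between the lines was tested as an interaction. C1qc fell more in TRAP in RBP4 than in VGAT (difference -1.77 ± 0.55, edgeR adjusted p = 0.0244), 1 of 9 genes where 6.95% of all genes were called lower. P2ry12 (-1.49 ± 0.55, adjusted p = 0.0690) and C1qb (-1.35 ± 0.50, adjusted p = 0.0729) did not pass. C1qc lost its call without RBP4 pool 1, 2 or 4 or VGAT pool 3 or 4, and without RBP4 pool 5 there were 5 calls, Cx3cr1, P2ry12, C1qb, C1qc and Aif1. P2ry12 rose more from TRAP to ST in RBP4 (1.68 ± 0.55, adjusted p = 0.0400), 1 of 9 where 5.13% of all genes were called higher. Without the library labelled RBP4 ST replicate 4 it was 1.79 (edgeR adjusted p = 0.0313). The call of P2ry12 ended without all libraries of RBP4 pool 2, 3 or 4 or VGAT pool 1, 3, 4 or 5, and without RBP4 pool 5 there were 4 calls. TMM factors moved the calls over all genes for ST against TRAP from 909 higher and 1043 lower to 1206 and 794. In the SNF to WCH and the ST to SNF interactions 0 of 9 genes and 0% of all genes were called with edgeR, DESeq2 called 0 of 9, and 0 of 9 had an unadjusted p under 0.05 with either tool, with 94 and 502 of all genes unadjusted with edgeR.

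Partners of these genes were read from lists. Of 10 genes of TREM2 and CSF1R signaling, 7 fell in TRAP against WCH in RBP4 and 8 in VGAT, and 0 rose. The adaptors Tyrobp (-3.36 in RBP4 and -1.42 in VGAT) and Fcer1g (-3.08 and -1.19), the kinase Syk (-1.28 and -1.84), the exchange factor Vav1 (-2.49 and -1.55) and Spi1 (-2.86 and -1.90) fell in both lines. In SNF against WCH only Tyrobp (1.37 and 1.59) and Fcer1g (1.22 and 1.48) rose in both lines and the adaptor Hcst in VGAT (1.44), while Spi1 was at 0.45 and 0.53 without passing. In ST against SNF 3 rose in VGAT, Syk (1.06), the phosphatase gene Inpp5d (1.11) and the phospholipase gene Plcg2 (1.08), where 16.3% of all genes were called higher, and 0 of 10 were called in RBP4.

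Ligands had another pattern. Of 7 that could be tested, 7 rose in SNF against WCH in both lines. In TRAP, Il34 rose in RBP4 (0.96) and was at 0.14 in VGAT without passing, whereas Csf1, the other ligand of CSF1R, fell (-1.02 and -2.23). Apoe, a lipid carrier that TREM2 binds, fell (-2.99 and -2.10), as did the lipid carrier Clu (-1.22 and -1.24). Cx3cl1, which encodes fractalkine, was at 0.39 and -0.09 in TRAP, not called. In ST against SNF 5 of the 7 fell in VGAT and 1, Cd47, in RBP4 (-0.91).

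Of 18 complement genes outside C1q, 11 fell in TRAP in RBP4 and 13 in VGAT, where 1, the complement regulator Cd59a, rose (0.70). Itgb2, the beta chain of complement receptor 3, fell by 3.39 and 3.08, and Serping1, the C1 inhibitor, by 3.28 and 3.05. In SNF against WCH 6 of them rose in RBP4 and 16 in VGAT, Itgb2 (1.32 and 1.35) and Serping1 (1.21 and 1.5) among them in both lines.

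Of 30 further microglia genes, 27 fell in TRAP in RBP4 and 28 in VGAT, with the smallest p for P2ry13 (-3.99 and -2.35), a purine receptor like P2ry12, and Gpr34 (-3.02 and -2.04), a lipid receptor. Both also fell in ST against SNF in both lines, P2ry13 by 1.69 and 1.65 and Gpr34 by 1.26 and 1.16. Beside them Cd53, Fcgr3 and Gpr183 fell in RBP4, making 5 of 30, and 10 of 30 fell in VGAT while 2, Irf8 and Cyth4, rose. Of 11 genes of border macrophages and blood myeloid cells, 9 fell in TRAP in each line, the mannose receptor gene Mrc1 (-2.78 and -1.72) and F13a1 (-2.21 and -1.99) among them. Their sum was 13.3 to 23.2 cpm in WCH, with 122 to 296 cpm for the 9 genes, and their part in the levels was not tested.

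Across the 40 libraries Pearson's r of log2(cpm + 0.5) between pairs of the 9 genes ran from 0.760 to 0.987, with a median of 0.942 over 36 pairs. Libraries share pools and fractions, so that r is a description. With group means subtracted it ran from 0.387 to 0.900, with a median of 0.706. Csf1r was most like the mean of the other genes (r = 0.984, and 0.917 with group means subtracted) and P2ry12 least (0.863 and 0.578). Among 14008 other genes with a mean level of 1 cpm or more, the 10 most like the mean of the 9 included Siglech (r = 0.983), Ly86, Ctss, Vsir, Itga6, Tyrobp, Rac2, Fcrls and Fcer1g (r = 0.970), and 7 of the 10 belong to the microglia or signaling lists.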

How the data were processed

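The deposited counts are whole numbers per gene without normalization, made by the authors from 50-base single reads of SMARTer libraries with STAR 2.0.4b (Ensembl assembly) and featureCounts 1.4.5. CPM and RPKM values, also deposited by the authors, were used as a check alone and could be recomputed from the counts to within 4.07e-10 and 2.76e-10. Symbols came from GENCODE M21 (GRCm38), with 40254 genes matched. The 9 genes and all lists were chosen with earlier results of these data known.

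Mitochondrial, rRNA and tRNA genes (390) were left out, and library sizes were the remaining totals with no further factor. Genes that reached 0.5 cpm in 3 or more libraries were tested with edgeR 4.0.16 (R 4.3.3, glmQLFit and glmQLFTest), in the 20 libraries of a line within lines and in all 40 between lines and for interactions. P-values were adjusted over all genes tested by Benjamini-Hochberg, and a gene was called at 0.05 or less. SE is the log2 fold change over the square root of F, and 95% intervals are 1.96 SE. The script was tested on simulated data. Other steps used Python 3.11.15, numpy 2.4.6, pandas 2.3.3 and matplotlib 3.10.9.

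The 4 libraries of a pool carry 1 number per the protocol in the labels. Same-numbered libraries deviated together on average (mean r 0.217 in RBP4 and 0.255 in VGAT, with -0.0544 and -0.0631 between numbers), and the pool as a block was an alternative. The lines are different mice, so that a number shared between lines marks no shared pool. Same-numbered libraries of the lines had a mean r of 0.200 in WCH, 0.153 in TRAP, 0.224 in SNF and 0.0472 in ST, with -0.0482 to -0.0106 between numbers and some pairs below 0 in each fraction, and a block by number was an alternative. Further alternatives were TMM factors, DESeq2 1.42.0, a likelihood ratio test, no genes left out, no filter, 1 cpm in 5 libraries, all 40 or 30 libraries, each pool left out, and RBP4 ST replicate 4 left out. Named beside the 9 genes are, per list, the 2 with the smallest p in each direction for TRAP against WCH, signaling genes and ligands called in both lines, Slc17a7, Slc32a1, and the 10 genes most like the 9; some genes that this rule names are not reported here. Cx3cl1, Cd47, Hcst, Inpp5d, Plcg2, Cd59a, Cd53, Fcgr3, Gpr183, Irf8, Cyth4, Aldh1l1 and Pecam1 were named after their values were seen.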

Additional observations from a re-analysis of the deposited data

Results flagged for a closer look

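In 5 of 72 sets of 5 libraries a library lay far from the rest, where chance gives about 1 in 20. RBP4 TRAP replicate 5 had 9.64 cpm of Cx3cr1 and 8.12 cpm of Csf1r. VGAT SNF replicate 3 had 202.6 cpm of Cx3cr1, 25.7 cpm of C1qa and 48.3 cpm of Aif1. Mitochondrial genes took 41.9% of the counts of the latter library and 13.3% to 19.4% in the other VGAT SNF libraries. They took 40.2% in RBP4 SNF replicate 3 and 11.2% to 18.8% in the other RBP4 SNF libraries, and their part in the result was not tested.

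By the interaction test 2 results were called different between the lines. The difference for C1qc in TRAP against WCH was -1.77 (RBP4 less VGAT, log2 scale), where 6.95% of all genes were called lower. That for P2ry12 in ST against TRAP was 1.68, where 5.13% of all genes were called higher. Neither call held in every fit with a pool left out. Those fits called 0 to 5 of the microglia genes for TRAP against WCH and 0 to 4 for ST against TRAP.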

How the results depend on the processing

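Of 2250 alternative fits of 144 gene values, 2139 kept direction and side of the threshold, 25 gained and 34 lost a call, and 52 changed sign, none of them a value called in the report. Counts of called genes stayed within 1.5 times in 220 of 250 fits. For ST against SNF in RBP4 (0 called) the count was 1 with the likelihood ratio test, 1 with no filter, 2 with all 40 libraries and 1 with the replicate block, and 0 to 3 with single pools left out. In VGAT (2 called) it was 1 with no genes left out, 1 with all 40 libraries and 1 with the block, and 1 to 2 with pools left out. Between lines in ST it was 0 to 2 with libraries left out, for the line difference in TRAP against WCH 3 with the likelihood ratio test and 0 to 5 with pools left out, and for that in ST against TRAP 0 to 4. With the block the line differences of C1qc (-1.62) and P2ry12 (1.29) were still called. Between lines the replicate number as a block left 0 called in WCH, SNF and ST and 7 in TRAP. The causes were not tested.

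Signs changed near 0. In ST against SNF with no genes left out, C1qa in RBP4 was 0.091, and C1qb 0.061, C1qc 0.15 and Tmem119 0.22 in VGAT, where Trem2 was -0.031 with TMM and -0.078 with DESeq2. In the line difference of SNF against WCH, Csf1r was 0.040 with no genes left out and 0.062 with TMM, P2ry12 0.0043 and C1qb 0.016 with TMM, and Aif1 0.0081 with the block. In that of ST against TRAP, Csf1r was 0.14 with TMM and 0.081 with DESeq2. With pools left out, ST against SNF ran for C1qa in RBP4 from -0.72 to 0.14, and in VGAT for Tmem119 from -0.17 to 0.085, Trem2 from -0.12 to 0.26 and Aif1 from -0.059 to 0.30. RBP4 over VGAT ran for C1qc from -0.21 to 0.047 and Trem2 from -0.14 to 0.010 in WCH, and for C1qc from -0.57 to 0.021 in SNF. The line difference of SNF against WCH ran for Cx3cr1 from -0.074 to 0.20, Csf1r from -0.21 to 0.10, C1qa from -0.50 to 0.074, C1qb from -0.36 to 0.14, C1qc from -0.41 to 0.16, Tmem119 from -0.31 to 0.058 and Aif1 from -0.32 to 0.14, and that of ST against TRAP for Csf1r from -0.34 to 0.73, C1qa from -0.0049 to 0.85 and Trem2 from -0.55 to 0.56. Depth limits C1qa, Tmem119 and Trem2 most, with 5 or 6 counts in their lowest TRAP library.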
